A study of Mus musculus with 12 samples.

Results

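The 10 genes described here encode proteins of dendritic spines and neurites, and were chosen by their lower read counts in hippocampal libraries labelled *Gadd45a*-KO than in those labelled *Gadd45a*-WT. They are *Ppp1r9a*, *Dgki*, *Frmpd4*, *Cttnbp2*, *Abl2*, *Tmod2*, *Map2*, *Myo5a*, *Lrp6* and *Atp8a1*, which are 10 of the 37991 genes in the files and 10 of the 16399 that passed the filter on low counts. The 12 libraries come from the hippocampi of 12 mice on a C57BL/6N background, aged 6 to 7 months, of which 6 are labelled Wildtype (*Gadd45a*-WT in the text) and 6 as lacking *Gadd45a* (*Gadd45a*-KO). All were siblings from crosses of heterozygotes, all went through the passive avoidance test (PA), in which a mouse learns to avoid a dark compartment where it received a foot shock, and all were killed 1 h later. In the deficient line a neomycin cassette replaced the first 3 exons of *Gadd45a* in every cell, and exon 4 remained. No untrained group was analysed here, so both groups share the training. Poly(A) RNA was sequenced with a stranded kit, and each file holds whole read counts per gene.

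Dendritic spines are small protrusions that receive most excitatory synapses of hippocampal pyramidal neurons. Their shape depends on a network of actin filaments, which scaffold proteins, kinases and capping proteins organise, while the dendritic shaft that carries them is built around microtubules. Lipid signals and Wnt ligands act on the same structures from the membrane.

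The libraries held 44594261 to 55540601 reads on genes. Reads on *Gadd45a* itself went against the labels when counted over the whole gene, with 2.19 to 3.43 CPM (counts scaled to a common library size) in the 6 *Gadd45a*-WT libraries and 20.5 to 23.1 CPM in the 6 *Gadd45a*-KO libraries, so groups are named by label throughout. Counts over the whole gene do not separate the replaced exons from exon 4, so these values are no measure of the deletion. The threshold for a call was a false discovery rate (FDR) of 1% in edgeR (quasi-likelihood fit, Benjamini-Hochberg adjustment). The *Gadd45a*-KO libraries had lower levels of 430 tested genes (2.62%) and higher levels of 4 (0.0244%). Summed markers of hippocampal neurons were present in every library, although *Pou3f1*, 1 of the 5 CA1 markers, had 0 reads in all. *Gadd45a*-KO replicate 4 had the lowest sum of dentate granule markers (255 CPM, 358 to 558 CPM elsewhere) and the highest of CA1 markers (1305 CPM, 783 to 1188 CPM elsewhere). The summed level of 10 thalamic markers ranged from 133 to 185 CPM in *Gadd45a*-WT libraries and from 144 to 179 CPM in 4 of the *Gadd45a*-KO libraries, but reached 424 and 648 CPM in *Gadd45a*-KO replicates 2 and 3, in each of which all 10 markers stood above every other library outside this pair. The summed level of 6 oligodendrocyte markers was 7309 CPM in replicate 3 labelled *Gadd45a*-KO and 2316 to 3736 CPM in the other libraries. No marker gene of the 11 lists passed 1% FDR. In hippocampal tissue, fewer cells of a type cannot be told apart from less RNA per cell. The part of these markers in the results was not tested. Values without *Gadd45a*-KO replicates 2 and 3 are given for the members, for *Atp8a2* and for the named pathway genes that passed.

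The 250 bases before an annotated transcript start are shown for 3 members, which include the pair with the largest falls. Their levels correlated with each other within each label, although no correlation between members passed adjustment for the number tested. The windows were taken from the RefSeq promoter table (GRCm38.p6), which held 13 windows for 9 of the 10 members. Capitals mark, on either strand, the letters GGGCGG of a GC box, the CCAAT box by its own letters, the letters TGACGTCA of a cAMP response element, the letters CACGTG of an E-box, and the letters TATAAA of the box named for them. The windows are *Ppp1r9a* at chr6:4902725-4902974 on the plus strand, *Dgki* at chr6:37299977-37300226 on the minus strand and *Map2* at chr1:66175079-66175328 on the plus strand.
Ppp1r9a: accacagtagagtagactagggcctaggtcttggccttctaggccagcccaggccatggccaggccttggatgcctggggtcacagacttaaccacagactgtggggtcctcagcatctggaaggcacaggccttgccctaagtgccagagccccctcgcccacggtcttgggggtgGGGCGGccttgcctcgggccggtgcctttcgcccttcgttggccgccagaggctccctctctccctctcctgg
Dgki: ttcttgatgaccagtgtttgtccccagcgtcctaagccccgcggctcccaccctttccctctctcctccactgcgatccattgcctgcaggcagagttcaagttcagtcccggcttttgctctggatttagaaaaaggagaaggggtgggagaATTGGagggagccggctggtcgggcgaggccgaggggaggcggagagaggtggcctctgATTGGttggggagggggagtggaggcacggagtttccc
Map2: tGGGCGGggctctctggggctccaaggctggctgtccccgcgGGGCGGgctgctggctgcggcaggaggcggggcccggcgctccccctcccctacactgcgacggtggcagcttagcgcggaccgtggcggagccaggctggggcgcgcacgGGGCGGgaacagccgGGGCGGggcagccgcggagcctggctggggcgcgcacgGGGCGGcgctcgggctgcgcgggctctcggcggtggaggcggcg

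The *Map2* window contained 5 GC boxes and 81.2% G and C. The *Dgki* window held 2 CCAAT boxes, both on the opposite strand, and 60.8% G and C. The *Ppp1r9a* window shown held 1 GC box and 65.2% G and C. Another window of *Ppp1r9a*, at chr6:4903061-4903310, is not shown and had a GC box, an E-box and 81.2% G and C. A GC box was present in 8 of the 13 member windows, belonging to 7 genes, against 32.7% of the 32851 windows in the table. These 32851 windows were not limited to the tested genes, so this and the shares below do not compare members with expressed genes. A CCAAT box was present in 2 member windows (33.8% of all windows) and an E-box in 1, the *Ppp1r9a* window not shown (6.02% of all). TGACGTCA and TATAAA, found in 1.55% and 12.4% of all windows, were not among the letters of the member windows. The median G and C content was 66.8% in member windows, from 40.4% for *Frmpd4* to 81.2%, and 52.4% in all windows. These are matches of letters in a window, and binding was not measured here.

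Among the spine scaffolds, *Ppp1r9a*, which encodes neurabin-1, an actin-binding scaffold that brings protein phosphatase 1 to spines, lies on chromosome 6 of NCBIM37 from 4853004 to 5115661. Its lowest, median and highest levels were 286, 322 and 338 CPM in the *Gadd45a*-WT libraries, and 208, 233 and 257 CPM in the *Gadd45a*-KO libraries. All 6 *Gadd45a*-KO libraries were below all 6 *Gadd45a*-WT libraries. Its log2 fold change was -0.45 (standard error 0.06), a level 27% lower, and -0.40 without *Gadd45a*-KO replicates 2 and 3.

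*Frmpd4* encodes Preso, a scaffold with FERM and PDZ domains that binds PSD-95, and lies on chromosome X from 163909241 to 165015163. It ranged from 115 over a median of 127 to 144 CPM in *Gadd45a*-WT libraries and from 89.9 over 97.7 to 103 CPM in *Gadd45a*-KO libraries. The groups did not overlap, and the log2 fold change was -0.39 (standard error 0.05) with all libraries and -0.39 without the pair rich in thalamic markers. *Cttnbp2*, whose product binds cortactin in spines, lies on chromosome 6 from 18316478 to 18465338. Its lowest, median and highest levels were 268, 293 and 333 CPM under the *Gadd45a*-WT label and 212, 251 and 266 CPM under the *Gadd45a*-KO label. The 2 ranges came within 2 CPM of each other without overlapping. The log2 fold change of *Cttnbp2* was -0.26 (standard error 0.06), and -0.20 without the 2 libraries.

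*Abl2* encodes Arg, a tyrosine kinase that acts on cortactin and on dendrite stability, and lies on chromosome 1 from 158488917 to 158579699. It measured 134, 152 and 160 CPM as lowest, median and highest *Gadd45a*-WT levels, and 112, 123 and 135 CPM in *Gadd45a*-KO libraries. A single *Gadd45a*-KO library reached into the *Gadd45a*-WT range, and 5 of 6 were below it. On the log2 scale the difference for *Abl2* was -0.25 (standard error 0.06), and -0.22 without *Gadd45a*-KO replicates 2 and 3.

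*Tmod2* encodes the neuronal tropomodulin, which caps the slow-growing ends of actin filaments, and lies on chromosome 9 from 75413428 to 75459132. Levels in the *Gadd45a*-WT libraries were 468 CPM at the lowest, 539 CPM at the median and 622 CPM at the highest, and those in *Gadd45a*-KO libraries 410, 438 and 474 CPM. Here too 5 of 6 *Gadd45a*-KO libraries lay below the *Gadd45a*-WT range. On the log2 scale the difference was -0.30 (standard error 0.07), or -0.29 without the 2 libraries.

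*Map2*, the microtubule-associated protein of dendrites, had the highest level per kb of exon of the 10 genes. It lies on chromosome 1 from 66221847 to 66489157, and its lowest, median and highest levels were 1022, 1169 and 1315 CPM in *Gadd45a*-WT libraries against 851, 932 and 994 CPM in *Gadd45a*-KO libraries. The groups did not overlap. The log2 fold change was -0.33 (standard error 0.06), and -0.29 without *Gadd45a*-KO replicates 2 and 3.

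*Myo5a*, an actin-based motor that carries organelles and vesicles, lies on chromosome 9 from 74918822 to 75071495. It had 380, 431 and 452 CPM as lowest, median and highest values in *Gadd45a*-WT libraries and 315, 357 and 391 CPM in *Gadd45a*-KO libraries, of which 5 of 6 were below the *Gadd45a*-WT range. For *Myo5a* the log2 fold change was -0.26 (standard error 0.06), or -0.27 without the 2 libraries.

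Among the genes of membrane signalling, *Dgki*, which encodes diacylglycerol kinase iota and converts diacylglycerol into phosphatidic acid, showed the lowest level per kb of exon and the lowest log2 fold change of the 10. It lies on chromosome 6 from 36796022 to 37250184. Its lowest, median and highest levels were 16.7, 22.5 and 32.1 CPM in *Gadd45a*-WT libraries, from 761 to 1606 reads, and 10.3, 12.6 and 13.6 CPM in *Gadd45a*-KO libraries, from 486 to 717 reads. The groups did not overlap, although the *Gadd45a*-WT libraries spread over a range wider than the gap between the groups. The log2 fold change was -0.94 (standard error 0.13), a level 47.9% lower, and -0.85 without the 2 libraries.

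*Lrp6* encodes a co-receptor that binds Wnt ligands together with Frizzled receptors, and lies on chromosome 6 from 134396494 to 134516983. It ranged from 61.4 over 69.4 to 80.2 CPM in *Gadd45a*-WT libraries and from 51.5 over 55.3 to 62.7 CPM in *Gadd45a*-KO libraries. The highest *Gadd45a*-KO library, replicate 5, was above the lowest *Gadd45a*-WT library. Its log2 fold change was -0.32 (standard error 0.06), or -0.29 without the 2 libraries. *Atp8a1*, a flippase that moves aminophospholipids to the inner leaflet of membranes, lies on chromosome 5 from 68009379 to 68238671. It had 285, 318 and 345 CPM as lowest, median and highest *Gadd45a*-WT levels and 238, 268 and 278 CPM as *Gadd45a*-KO levels, without overlap. For *Atp8a1* the log2 fold change was -0.26 (standard error 0.05), or -0.28 without the 2 libraries.

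**Figure D1:**
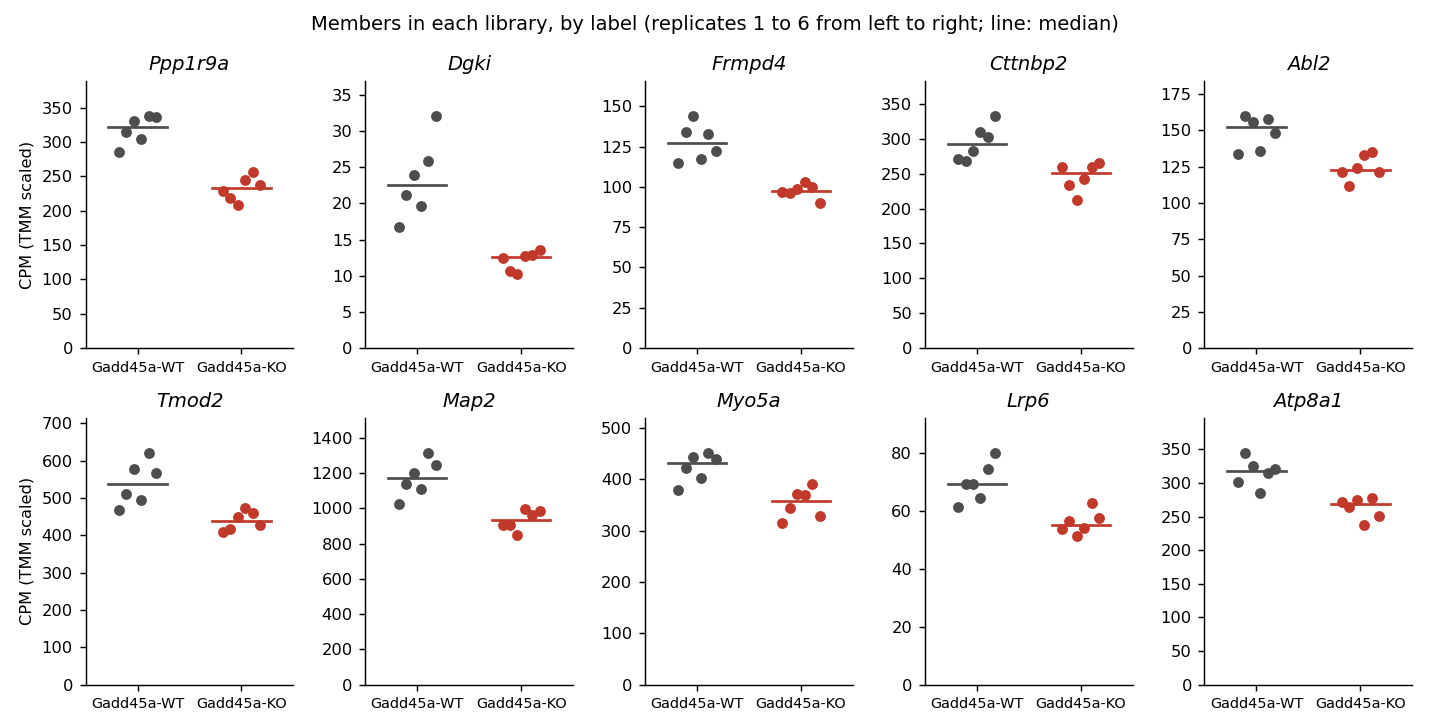
CPM (linear axis from 0) of each member in the 12 libraries, with grey points for the 6 libraries labelled *Gadd45a*-WT, red points for the 6 labelled *Gadd45a*-KO and a line at the median of each label. For *Ppp1r9a*, *Dgki*, *Frmpd4*, *Cttnbp2*, *Map2* and *Atp8a1* no red point reaches the lowest grey point, and for the other 4 genes 1 red point does.

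Because the members were selected on this contrast, these differences are a description and no test is read from them. At 1% FDR, 6 of the 10 were called lower (*Ppp1r9a*, *Dgki*, *Frmpd4*, *Map2*, *Lrp6* and *Atp8a1*), beside 2.62% of all tested genes, and 6 had non-overlapping groups, beside 3.12% of all tested genes. All 10, chosen for being lower, had all 6 *Gadd45a*-KO libraries below the mean of the *Gadd45a*-WT libraries. The share of all tested genes with this pattern is not given, so the count sets the members apart from no other genes. Without *Gadd45a*-KO replicates 2 and 3, which was chosen after seeing the data, the called members were *Ppp1r9a*, *Dgki* and *Frmpd4*, and the log2 fold changes of the 10 ran from -0.85 to -0.20. These 3 were also the called members when *Gadd45a*-KO replicate 1 or 2, or *Gadd45a*-WT replicate 3, 5 or 6, was left out.

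Levels were set between genes only per kb of exon. In the *Gadd45a*-WT libraries *Map2* was highest, with 71.2 ± 6.32 CPM per kb (SD, n = 6), followed by *Tmod2* with 52 ± 5.61 CPM per kb (SD, n = 6). *Cttnbp2*, *Atp8a1*, *Myo5a* and *Ppp1r9a*, between 32.9 and 27.4 CPM per kb, each overlapped with the next in this order. *Abl2* and *Frmpd4* overlapped at 13.9 and 13.5 CPM per kb. *Lrp6* with 7.12 and *Dgki* with 3.72 CPM per kb were lowest, without overlap. The order of the means was the same in the *Gadd45a*-KO libraries, from 56.7 CPM per kb for *Map2* to 1.94 for *Dgki*.

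The closest family members of the 10 genes were set beside them, 14 in all, chosen by family and not by their counts. At 1% FDR 0 of the 14 were called lower or higher in the same edgeR fit, beside 2.62% lower and 0.0244% higher of all tested genes. With 14 genes, 0 is near these shares and does not set the members apart. The family members also had a shorter median exonic length, 5797 nt against 10527.5 nt. For 1 (*Atp8a2*) the unadjusted p was under 0.05, as it was for 2245 of all 16399 tested genes. DESeq2 called 1 of the 14. The median log2 fold change was 0.01, beside 0.00 for all tested genes. *Ppp1r9b*, which encodes spinophilin, the near relative of neurabin-1, had 1108 CPM in *Gadd45a*-WT and 1106 CPM in *Gadd45a*-KO libraries on average (log2 fold change 0.00, standard error 0.06). *Mapt*, which encodes the axonal protein tau, had 530 and 548 CPM (log2 fold change 0.05, standard error 0.04), and *Map4*, a microtubule protein of many cell types, 768 and 762 CPM (log2 fold change -0.01, standard error 0.06). For all 3 the difference between the labels was smaller than the SD of the libraries of either label.

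*Dgkz*, the diacylglycerol kinase closest to *Dgki*, had 766 and 735 CPM in the same order, and its log2 fold change was -0.06 (standard error 0.07). Other values close to 0 were those of *Abl1* at 0.01 (standard error 0.04), *Cttnbp2nl* at 0.07 (standard error 0.04), *Lrp5* at 0.06 (standard error 0.07), *Tmod1* at 0.05 (standard error 0.08), *Tmod3* at -0.01 (standard error 0.05), *Myo5b* at 0.01 (standard error 0.08) and *Frmpd1* at 0.04 (standard error 0.07). *Frmpd3* and *Myo5c* were low, with means of 3.11 and 0.858 CPM in *Gadd45a*-WT libraries. Their standard errors of 0.17 and 0.35 are too wide to set them against most members.

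*Atp8a2*, the flippase closest to *Atp8a1*, stood apart from the other family members. It had 13.2, 17.6 and 20.6 CPM as lowest, median and highest *Gadd45a*-WT values and 7.04, 11.6 and 15.2 CPM in *Gadd45a*-KO libraries, with overlap, and all 6 *Gadd45a*-KO libraries were below the *Gadd45a*-WT mean. The log2 fold change was -0.61 (standard error 0.16), and the adjusted p of 0.0369 (edgeR quasi-likelihood, Benjamini-Hochberg) missed 1% FDR. It passed with DESeq2. Without *Gadd45a*-KO replicates 2 and 3 the log2 fold change of Atp8a2 was -0.56 (adjusted p = 0.134 in the edgeR fit).

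**Figure D2:**
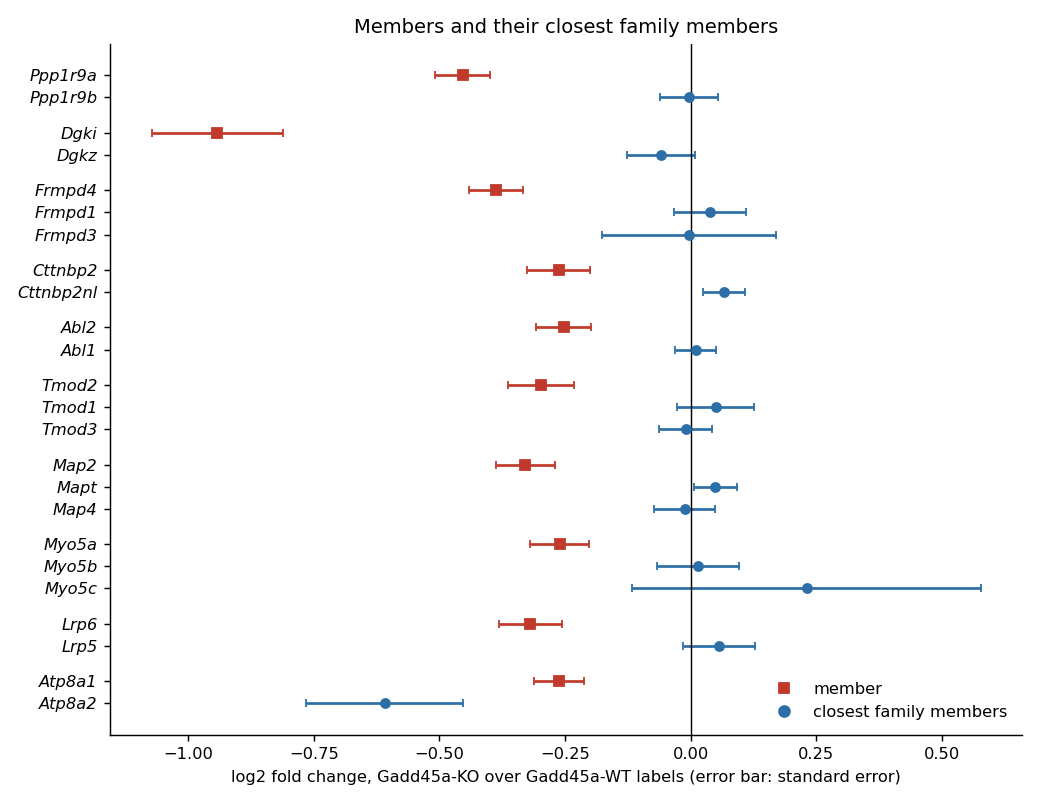
Log2 fold change between the labels, with standard errors, for each member (red squares) and its closest family members (blue circles), grouped by family. All members, which were chosen as lower, lie at or left of -0.25. Of the 14 family members, chosen by family only, 13 lie between -0.06 and 0.23, and *Atp8a2* lies at -0.61.

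Lists of other genes from the same pathways, 238 distinct genes with 236 tested, were examined next. At 1% FDR edgeR found 7 of them lower and 0 higher in this fit, a share of 2.97% beside 2.62% of all tested genes. An unadjusted p under 0.05 was found for 38, of which 30 were lower. Among all 16399 tested genes it was found for 2245, of which 1533 were lower. The median log2 fold change over the lists was -0.01. For the 7, adjusted p ran from 0.00115 to 0.00846 (*Diaph2*) by edgeR's quasi-likelihood fit (Benjamini-Hochberg).

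In the list of actin nucleators, *Diaph2*, a formin that elongates actin filaments, was the 1 of 26 genes called lower. A log2 fold change below 0 was found for 17 of the 26. *Diaph2* measured 41.3 ± 3.98 CPM in *Gadd45a*-WT and 32.7 ± 2.9 CPM in *Gadd45a*-KO libraries (SD, n = 6 each). Its log2 fold change was -0.34 (standard error 0.07), and it lost its call when *Gadd45a*-KO replicates 1, 2, 3, 4 or 6 or *Gadd45a*-WT replicates 2, 3, 5 or 6 were left out, while the value ran from -0.37 to -0.29 over all 12 such fits. Without both *Gadd45a*-KO replicates 2 and 3 the log2 fold change of *Diaph2* was -0.28.

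In the microtubule list, 2 of 28 were called lower, while 13 had a log2 fold change below 0. The 2 were *Camsap2*, which binds the minus ends of microtubules (log2 fold change -0.28, standard error 0.05), and *Kif5b*, a kinesin heavy chain (log2 fold change -0.23, standard error 0.04). *Myo9a*, an unconventional myosin, was the 1 of 20 in the list of myosins and recycling endosomes that was called lower (log2 fold change -0.20, standard error 0.04). In that list 9 of the 20 had a value below 0. *Atp11b* was the 1 of 14 tested flippases and partners called lower, with a log2 fold change of -0.31 (standard error 0.05). It measured 121 ± 7.4 CPM in *Gadd45a*-WT and 97.1 ± 6.07 CPM in *Gadd45a*-KO libraries (SD, n = 6 each). Of the 14, 7 had a value below 0, among them *Atp8a2* at -0.61, which was not called. *Kif5b* and *Myo9a* lost their calls in most fits with 1 library left out, and all 7 lost them without *Gadd45a*-KO replicates 2 and 3. The values moved little without this pair, with a log2 fold change of *Camsap2* of -0.28, a log2 fold change of *Kif5b* of -0.25, a log2 fold change of *Myo9a* of -0.19 and a log2 fold change of *Atp11b* of -0.29. With an offset for exonic length, *Diaph2* (-0.25) and *Myo9a* (-0.10) were no longer called.

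In the remaining 5 lists edgeR called 0 genes at 1% FDR. They held 3, 3, 3, 4 and 3 genes at an unadjusted p under 0.05, beside 2245 of all 16399 tested genes. Log2 fold changes ran from -0.41 to 0.326 for actin turnover and from -0.181 to 0.161 for actin crosslinking. They ran from -0.278 to 0.266 for Wnt signalling, -0.588 to 0.39 for diacylglycerol genes and -0.281 to 0.205 for binding partners. The abundant genes of each list measured as follows, and do not stand for the whole list. For actin turnover (28 genes) the log2 fold changes of *Tmsb4x* and *Pfn2*, which bind actin monomers, were both -0.01 (standard errors 0.06 and 0.04). For actin crosslinking (22 genes) *Sptan1*, a spectrin of the membrane skeleton, had -0.09 (standard error 0.04). For Wnt signalling (28 genes) *Ctnnb1*, which encodes beta-catenin, had 0.04 (standard error 0.03) and *Dkk3* -0.02 (standard error 0.07). The diacylglycerol genes *Rasgrp1* and *Prkce* (from a list of 20) had -0.04 (standard error 0.05) and 0.00 (standard error 0.04). Among the 20 binding partners at the synapse, *Dlg4*, which encodes PSD-95, had 798 CPM in *Gadd45a*-WT and 788 CPM in *Gadd45a*-KO libraries (log2 fold change -0.02, standard error 0.05), and *Ppp1cb*, a catalytic subunit of protein phosphatase 1, 403 and 411 CPM (log2 fold change 0.03, standard error 0.04). A missed threshold does not show that these genes were equal in both groups.

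The members also had long transcripts. Genes called lower were long in general, so this trait is not independent of how the members were chosen. Their exonic length ranged from 6242 to 16447 nt, with a median of 10527.5 nt, against 3498 nt for all tested genes, 7873 nt for the 430 genes called lower and 5797 nt for the family members. The longest annotated 3′UTR, counted with its stop codon, was 4387.5 nt at the median, while that of all tested genes was 1068 nt, and 9 of 10 members exceeded the latter (*Cttnbp2*, with 827 nt, did not). The longest coding sequence had a median of 3753 nt against 1401 nt, with *Tmod2* below at 1053 nt. The 7 pathway genes called lower had a median exonic length of 8195 nt, beside 5354 nt for the lists as a whole. Among the 96 list genes at least as long as *Dgki*, the shortest member, 7.29% were called lower.

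Calls across all genes varied with length in the same direction. Of the 3001 tested genes at least as long as *Dgki*, 276 (9.2%) were called lower. When the tested genes with a known length were split into 10 groups of like size by exonic length, the share called lower was 0.609% in the shortest, 1.22% or less in each group up to 4928 nt, 4.53% from 5995 to 7932 nt and 12.8% from 7935 nt on. The median log2 fold change was 0.02 from 2930 to 3498 nt and -0.07 in the group of the longest genes. In that group, to which all members but *Dgki* belong, the members lay 0.19 to 0.39 below the group's median log2 fold change, *Abl2*, *Myo5a* and *Atp8a1* nearest to it and *Ppp1r9a* farthest. *Dgki* was 0.92 below the median of its own group.

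When a smooth offset for exonic length was added to each library, the median log2 fold change of the members was -0.21. *Dgki* stayed at -0.92, *Ppp1r9a* at -0.36 and *Frmpd4* at -0.32, and these 3 were the members called lower. *Map2* went from -0.33 to -0.19 and *Myo5a* from -0.26 to -0.14, which moved both by more than 1.5 times. The part of length in the differences was not tested.

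**Figure D3:**
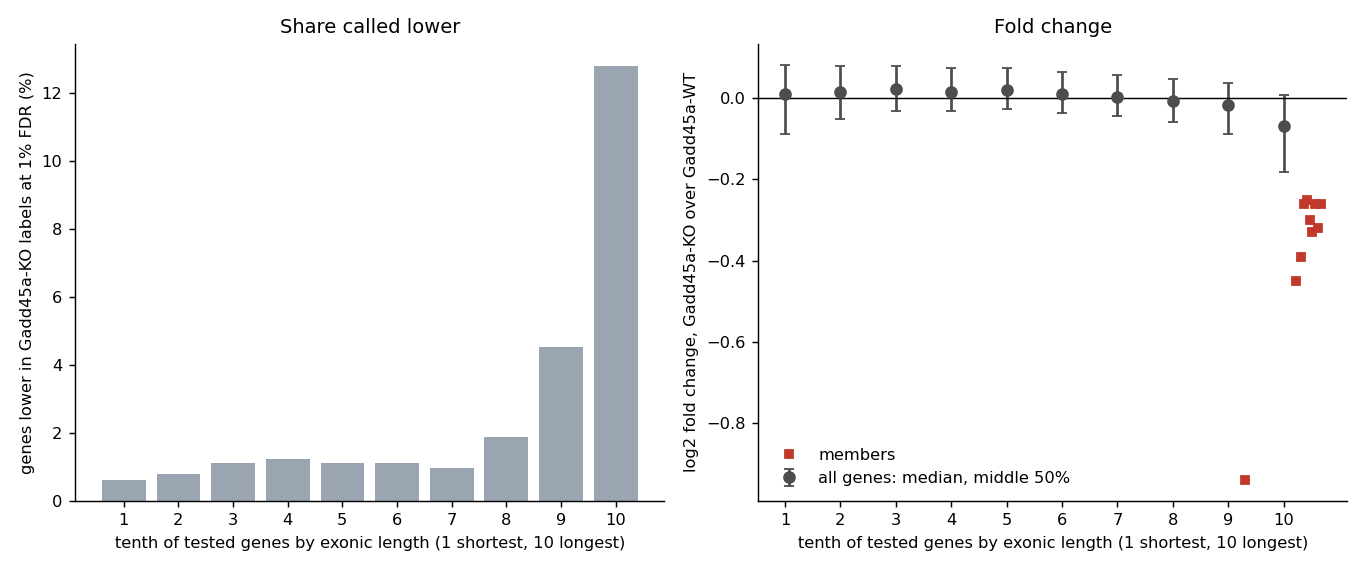
Share of genes called lower at 1% FDR (left, in percent) and log2 fold change (right) over 10 groups of tested genes ordered by exonic length, with the median and the middle 50% of each group in grey and the members as red squares. The share called lower rises from 0.609% in the shortest group to 12.8% in the longest, where all members but *Dgki* lie.

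AU-rich elements of 3′UTRs, which bind proteins that act on mRNA decay, were counted in the longest annotated 3′UTR of each gene (GENCODE vM1, NCBIM37). The study reported reads running well past the annotated 3′UTR end for most of its top lower genes. Any such stretch is missing from these counts and from the lengths given above. The members held a median of 1.89 ATTTA pentamers per kb, from 1.02 in *Abl2* to 4.85 in *Cttnbp2*, against 1.29 for the 14107 tested genes with a 3′UTR of at least 100 nt and 1.72 for the 663 with one at least as long as the median of the members. The stricter TTATTTATT was found in 3 of 10 members, *Abl2* and *Myo5a* among them, beside 7.74% of all these genes and 25.2% of those with a long 3′UTR. The sites of these named genes are shown with the motif in capitals, since few members hold it. They lie 1118 and 1915 nt behind the stop codon, at chr1:158573956-158573982 and chr9:75067706-75067732 of NCBIM37, both on the plus strand.
Abl2: gaatattctTTATTTATTttctccttt
Myo5a: gcagtacatTTATTTATTtgcaggacc

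*Ppp1r9a*, *Dgki*, *Cttnbp2* and *Lrp6*, 4 of the 10 members, lie on chromosome 6, the chromosome of *Gadd45a*. This chromosome holds 4.95% of tested genes and 5.81% of those called lower. The distances to *Gadd45a* are 61.9 Mb for *Ppp1r9a*, 29.7 Mb for *Dgki*, 48.5 Mb for *Cttnbp2* and 67.4 Mb for *Lrp6*.

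The co-variation of the members was then followed inside each label. The choice of members used the difference between the labels, which need not be independent of the variation inside them. Genes called lower were not taken as a background of their own. In the 6 *Gadd45a*-WT libraries the 45 pairs of members had a median Pearson r of 0.71 (standard error 0.22 from leaving out each library in turn), from -0.31 to 0.99, with 42 pairs above 0. The median was 0.00 over pairs of all tested genes and 0.19 over pairs of the 3001 long genes. In the 6 *Gadd45a*-KO libraries the median was 0.27 (standard error 0.37), from -0.67 to 0.91, with 32 pairs above 0, against 0.00 and 0.07 for the same backgrounds. Without *Gadd45a*-KO replicate 5 this median was -0.02. The difference between the labels was not tested. All pairs share libraries, depth and scaling factors. Over the 90 correlations, 16 pairs in *Gadd45a*-WT and 6 in *Gadd45a*-KO libraries had an exact permutation p under 0.05, but 0 remained after Benjamini-Hochberg adjustment, where the smallest value was 0.0625.

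The 3 pairs whose lower r of the 2 labels was highest are given in full, together with the pair whose higher r was lowest. For *Ppp1r9a* with *Map2*, r was 0.97 and Spearman's coefficient 1.00 in *Gadd45a*-WT libraries (exact permutation p = 0.00139 and 0.00278, adjusted 0.0625 and 0.0833), and r was 0.91 without the 2 libraries farthest from the median of *Ppp1r9a*. In *Gadd45a*-KO libraries r was 0.87 and Spearman's coefficient 0.83 (exact permutation p = 0.0236 and 0.0583, adjusted 0.15 and 0.239), and r was 0.94 without 2. For *Dgki* with *Map2*, r was 0.87 in both labels, with Spearman's coefficient of 0.94 and 0.83 (exact permutation p for r = 0.0222 and 0.0153, for Spearman's coefficient 0.0167 and 0.0583; adjusted 0.15 and 0.125 for r, 0.136 and 0.239 for Spearman's coefficient). Without 2 libraries the r of this pair was 0.97 and 0.64.

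*Tmod2* and *Myo5a*, an actin cap and an actin motor whose genes lie near each other on chromosome 9, had r of 0.96 and Spearman's coefficient of 1.00 in *Gadd45a*-WT libraries (exact permutation p = 0.00278 for both, adjusted 0.0625 and 0.0833). In *Gadd45a*-KO libraries r was 0.86 and Spearman's coefficient 0.77 (exact permutation p = 0.0417 and 0.103, adjusted 0.17 and 0.343). Without 2 libraries r was 0.97 and 0.89. *Frmpd4* and *Cttnbp2* were the pair chosen for the lowest larger r, with r of -0.26 and Spearman's coefficient of -0.26 in *Gadd45a*-WT libraries (exact permutation p = 0.632 and 0.658, adjusted 0.769 and 0.78) and r of -0.40 and Spearman's coefficient of -0.37 in *Gadd45a*-KO libraries (exact permutation p = 0.429 and 0.497, adjusted 0.621 and 0.678). Their r without 2 libraries was -0.67 and -0.01.

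**Figure D4:**
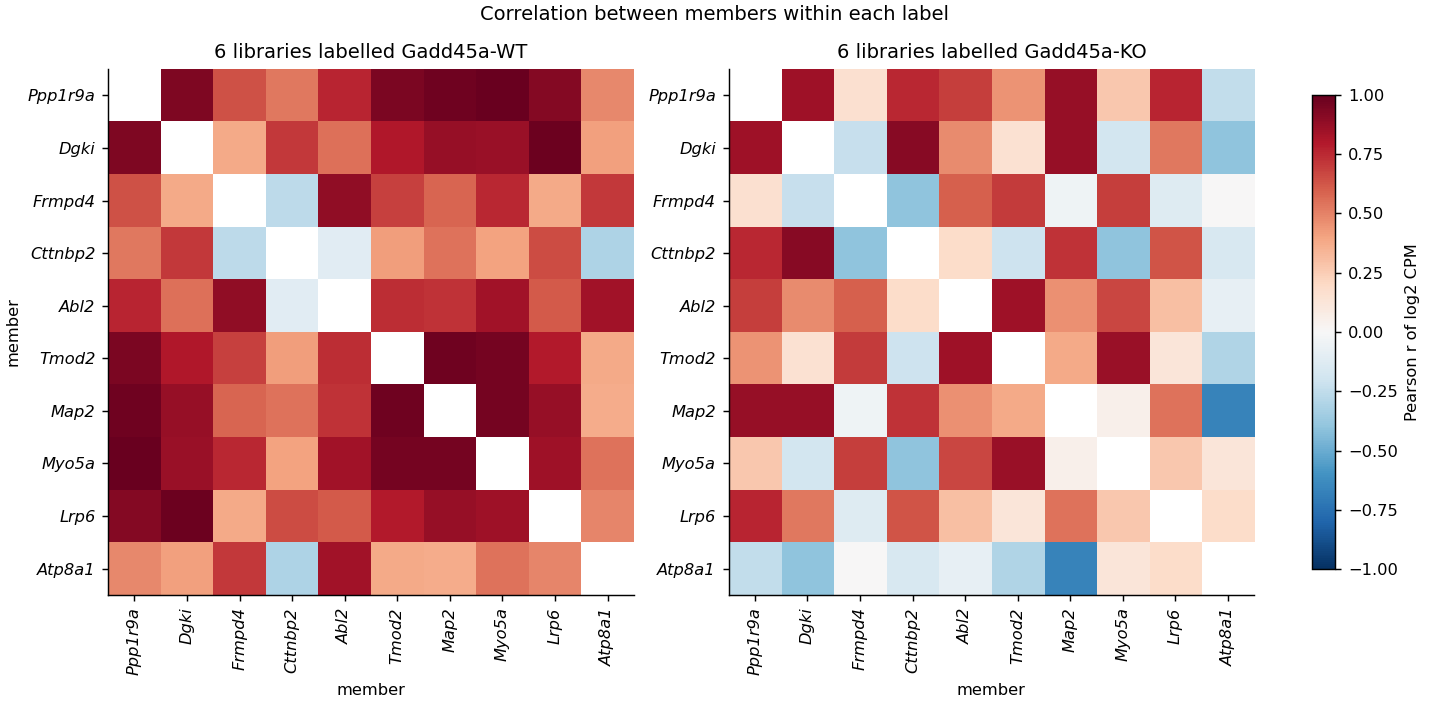
Pearson r of log2 CPM between every pair of members over the 6 libraries of each label, with red for positive and blue for negative values. In *Gadd45a*-WT libraries 42 of 45 pairs are above 0, *Cttnbp2* holding all 3 that are not, and in *Gadd45a*-KO libraries 32 are above 0.

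Across members, *Ppp1r9a* had the highest median r with the others, 0.92 in *Gadd45a*-WT and 0.69 in *Gadd45a*-KO libraries. *Atp8a1* was among the lowest in both, with 0.48 and -0.16, and *Frmpd4* had 0.64 and 0.00. The members' spread between libraries was of the size seen for other genes. Their median SD of log2 CPM was 0.124 in *Gadd45a*-WT and 0.098 in *Gadd45a*-KO libraries, against 0.109 and 0.114 for all tested genes, and *Dgki* was the most variable, with 0.327 and 0.162.

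Single libraries stood apart for most members at once. Replicate 1 labelled *Gadd45a*-WT was the lowest of its label for 8 of the 10 members and below the label's mean for all 10, by 0.18 on the log2 scale on average. Replicate 5 labelled *Gadd45a*-WT was above the mean for all 10, and so was replicate 5 labelled *Gadd45a*-KO, with mean deviations of 0.11 and 0.10. Replicate 3 labelled *Gadd45a*-KO, with the highest thalamic and oligodendrocyte markers, was split, being the lowest of its label for 5 members but above the label's mean for 4. Its mean deviation was -0.065, beside -0.061 in replicate 2 of that label. Without *Gadd45a*-WT replicate 1 the median r of that label was 0.53.

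Reads that matched no counted feature of a gene on its strand differed between the labels as well. Such reads need not lie outside genes, since reads in introns may be among them. Of the reads counted on genes, without a feature or as ambiguous, those without a feature made up 14.41% to 15.78% in *Gadd45a*-WT libraries. In *Gadd45a*-KO libraries they made up 13.03% to 14.26%. The ranges did not meet (p = 0.00216 by exact permutation over libraries, two-sided, which is the lowest that 6 against 6 allow). Within the labels, the correlation of the members with this share was above 0 for all 10 in both labels, with a median r of 0.66 in *Gadd45a*-WT and 0.35 in *Gadd45a*-KO libraries. An exact permutation p under 0.05 was found for r in 2 members in *Gadd45a*-WT and 0 in *Gadd45a*-KO libraries, and 0 remained after adjustment over 40 correlations, where the smallest value was 0.222. Both were *Gadd45a*-WT values. For *Lrp6* r was 0.93 and Spearman's coefficient 0.89 (exact permutation p = 0.00556 and 0.0333, adjusted 0.222 and 0.583), and r was 0.69 without 2 libraries. For *Dgki* r was 0.89 and Spearman's coefficient 0.89 (exact permutation p = 0.0139 and 0.0333, adjusted 0.278 and 0.583), and r was 0.44 without 2. With total reads the median r was 0.39 in *Gadd45a*-WT and -0.16 in *Gadd45a*-KO libraries. The part of these library measures in the difference between the labels was not tested.

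**Figure D5:**
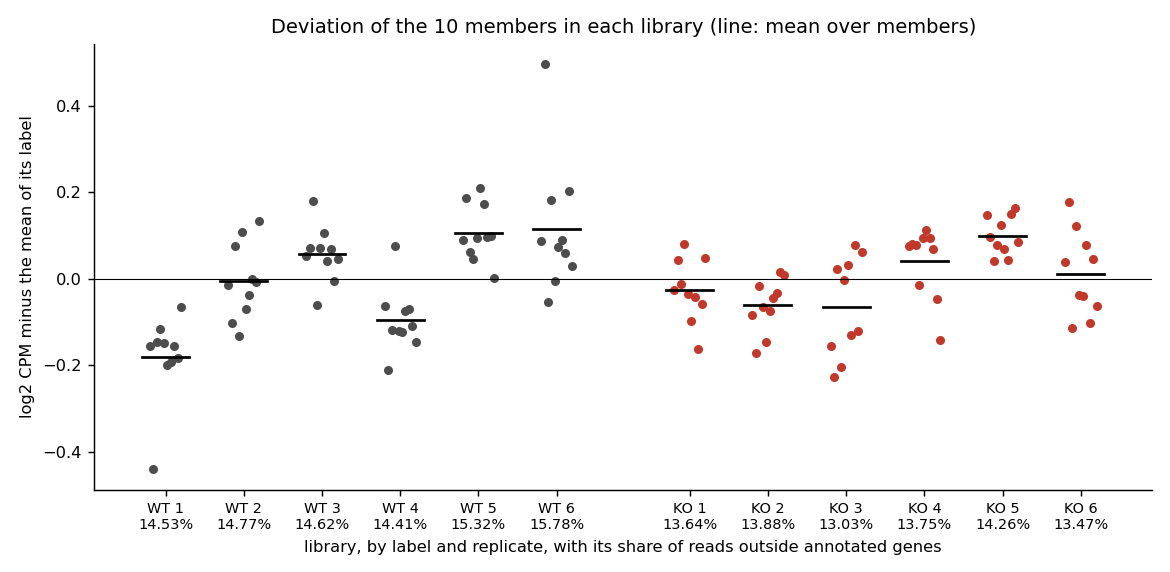
Log2 CPM of each member minus the mean of its label (points) and the mean over members (line) in each library. Under each library stands its share of reads that matched no counted feature of a gene, which may include reads in introns. All 10 points are below 0 in *Gadd45a*-WT replicate 1, and all 10 are above 0 in replicate 5 of both labels.

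The tested genes whose deviations within the labels were most like the mean deviation of the members over the 12 libraries were *Ash1l* (r = 0.98), *Nsd3* (r = 0.97), *Nbea* (r = 0.96), *Kcnj6* (r = 0.95) and *Mkln1* (r = 0.95). *Ash1l* and *Nsd3* encode histone methyltransferases, *Nbea* neurobeachin, which acts in membrane traffic at synapses, *Kcnj6* a potassium channel subunit and *Mkln1* muskelin. These values are a description, since the genes were the highest of all tested. Their log2 fold changes between the labels were -0.33, -0.26, -0.33, -0.28 and -0.17, of which *Nsd3* and *Nbea* passed 1% FDR in the same edgeR fit, and their exonic lengths ran from 5838 nt for *Kcnj6* to 22296 nt for *Mkln1*.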

How the data were processed

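RNA-seq was made from the hippocampi of 12 mice, 6 per label. The values are whole read counts per gene as deposited by the authors, who aligned reads to NCBIM37 (mm9) with TopHat 1.4.1 and counted them by strand with HTSeq 0.5.4p3, per the labels and the study's methods. The 5 rows of each file that name no gene were left out of library sizes and tests. Each library held 44594261 to 55540601 gene reads, and p-values measure the spread between mice.

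Genes were filtered by edgeR's filterByExpr, which left 16399 of 37991, scaled by TMM and tested in edgeR 4.0.16 (R 4.3.3) by the quasi-likelihood test between the labels with no covariate. Standard errors were taken from the log2 fold change and its F statistic. DESeq2 1.42.0 was an alternative. On simulated counts with 200 of 16301 genes changed by 1 on the log2 scale, edgeR recovered 198 and called 4 others. That change is larger than the one any member showed with all libraries, so it does not measure recovery at the sizes seen here. CPM used TMM-scaled library sizes, and log2 CPM a prior count of 2. Exonic lengths came from GENCODE vM1, which matched 37205 gene IDs and lacked 34 tested genes; the length offset was a spline with 5 degrees of freedom per library. Correlations were tested by exact permutation in Python 3.11.15.

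The members, family members, pathway lists and markers were chosen with earlier results of these data known. Genes named were *Gadd45a*, all members and family members, from each pathway list up to 3 of the lowest and 2 of the highest log2 fold changes past 1% FDR or else the 2 most abundant, the 3 member pairs whose smaller within-label r was highest and the pair whose larger r was lowest, and the 5 other genes closest to the mean deviation of the members. Alternatives were other scaling, filters, FDR, a length offset, a replicate block and leaving out libraries. Some results are not reported here.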

Additional observations from a re-analysis of the deposited data

Results flagged for a closer look

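In 84 groups of 6 libraries examined, 3 held a library that lay far from the other 5 for the range of the group (Dixon's 95% limit), against 4.2 that chance gives, since about 1 in 20 groups is marked. None was a member. *Tmod1* was at 37 CPM in *Gadd45a*-KO replicate 4 and at 47.9 to 52.2 CPM in the other 5 libraries of that label. *Dkk3*, which is also in the list of CA1 markers, was at 608 CPM in the same library and at 456 to 504 CPM in the others. *Myo9a* was at 110 CPM in *Gadd45a*-KO replicate 5, against 104 to 105 CPM.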

How the results depend on the processing

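The log2 fold changes of the 10 members kept their direction in all 21 settings. The settings reuse the libraries in which the members were chosen as lower, so this is no independent support. By DESeq2 the count of genes lower at 1% FDR was 661 and that of genes higher at 1% FDR 19, with 10 members, 1 family member (*Atp8a2*) and 13 pathway genes lower. At 5% FDR these were 726, 20, 10, 1 and 12. With the length offset 10 genes were higher and 3 members lower, and the median r of member pairs in *Gadd45a*-WT libraries was 0.49. Without *Gadd45a*-KO replicates 2 and 3, an alternative chosen after seeing the data, 198 genes, 3 members and 0 pathway genes were lower by edgeR. Leaving out 1 library at a time gave 239 (without *Gadd45a*-WT replicate 5) to 467 genes lower, 3 to 9 members and 4 to 7 pathway genes. Without *Gadd45a*-KO replicate 1, 2 or 6 the genes lower numbered 247, 276 and 248, and without *Gadd45a*-WT replicate 3 or 6 they numbered 269 and 261. The 9 members were called without *Gadd45a*-WT replicate 1. Pathway genes numbered 4 without *Gadd45a*-KO replicate 1, 2, 4 or 6 or *Gadd45a*-WT replicate 2, 3, 5 or 6. The median r of member pairs in *Gadd45a*-KO libraries ran from -0.02 (without replicate 5) to 0.50. The cause of these shifts was not tested. In 130 other recomputed summaries the value kept its direction, and counts stayed within 1.5 times.

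Whether replicate numbers pair the samples is not given in the labels. The correlation of same-numbered libraries was over 0.1 for 5 of 6 numbers (-0.0761 to 0.262, mean 0.14, against -0.0279 for other numbers), short of the set criterion of all 6, and replicate 3 alone matched its own number best. With a replicate block the genes lower at 1% FDR numbered 509, with 9 members (*Cttnbp2*, *Tmod2* and *Myo5a* in addition), 1 family member (*Atp8a2*) and 9 pathway genes. The block with the length offset gave 11 genes higher, 5 members and 1 family member.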
